A study of Homo sapiens with 8 samples.

Results

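The genes described here are 9 regulators and motors of the mitotic spindle, TPX2, AURKA, AURKB, BORA, PLK1, KIF11, BIRC5, INCENP and CDCA8, out of 18052 genes in a genome-wide knockout screen. They were chosen by name, in view of their values with erlotinib set against those with osimertinib. Those values are therefore given as a description, without a test. The screen was done in PC9 cells, a human lung adenocarcinoma line with an activating EGFR mutation, as a blasticidin-selected population that expresses the Cas9 nuclease in all groups. The cells carried TKOv3, a pooled library of guide RNAs with about 4 guides for each gene, and the number of reads of a guide stands for the abundance of the cells in which its gene was cut. The groups were cells treated for 72 h with 10 µM erlotinib, a reversible EGFR inhibitor, cells treated for 72 h with 0.1 µM osimertinib, a covalent inhibitor of mutant EGFR, cells given DMSO alone for 72 h (untreated), and cells collected when the drugs were added (T0), with 2 libraries in each. The drug doses differ, so a difference between the drugs is also a difference between doses. The methods describe a passage of the untreated cultures within the 72 h and name none for the treated ones. A difference between treated and untreated cells is thus also a difference in passage. Live cells were collected, and the paper reports slower proliferation and more death of PC9 cells with both drugs. Puromycin selection and recovery came before T0, and losses during that time are not in the comparisons with T0. Guide counts hold no expression values, so the identity of the cells was not checked against marker genes.

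Mitosis needs a bipolar spindle, and 2 Aurora kinases act at separate places in it. TPX2 binds Aurora A (AURKA) and activates it on spindle microtubules, after RAN-GTP near chromosomes has freed TPX2 from importins. BORA works with Aurora A to switch on Polo-like kinase PLK1 at mitotic entry. Aurora B (AURKB) works in the chromosomal passenger complex with the scaffold INCENP, survivin (BIRC5) and borealin (CDCA8), where it corrects faulty attachments of chromosomes to microtubules and takes part in cytokinesis. KIF11, also called Eg5, is the motor that slides antiparallel microtubules apart and so separates the spindle poles. Several of these proteins are needed for division in most proliferating human cells.

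The 8 libraries held between 32093833 and 39197691 reads, with a median of 445 to 549 reads per guide. Of the 36 guides against the 9 genes, 33 passed a filter that removed the lowest 5% of guides, and all 9 genes were tested. The guides left out were guide 3 of TPX2, guide 2 of BORA and guide 4 of PLK1. A gene's value in a library was the median of its kept guides on the log2 scale, relative to the non-targeting guides of that library, which cut nowhere in the genome, and to the mean of the T0 libraries. A log2 fold change (L2FC) is a difference between group means of these values. A gene was called when its adjusted p in limma was under 0.05. Replicates of a group correlated with r between 0.957 and 0.973 across guides. The study calls the libraries of a group biological replicates and the labels state infection in duplicate. Neither says at which step the cultures of a group were separated, so the p-values speak of the spread among these libraries. That spread was estimated from all 8 libraries together and, in limma, drawn toward that of genes of like abundance.

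At T0 most of these knockouts were already represented by few reads. Of the 36 guides, 32 lay below the median of all targeting guides, which was 505 normalized reads, while non-targeting guides had a median of 541. The median over guides was 85.7 reads for PLK1, lower than in all but 0.571% of genes. KIF11 followed with 109.7 reads, INCENP with 166.4, AURKA with 192.5 and TPX2 with 198.4, and each of these 5 genes lay among the lowest 10% of genes. AURKB (356.8 reads), BORA (357.3), BIRC5 (397.2) and CDCA8 (443.1) were higher, and guides of a single gene ranged widely, from 43.2 to 542.4 reads for AURKB. Those 5 are 55.6% of the 9 genes, against 45 of 163 other genes of the spindle, kinetochore, anaphase and mitotic entry (27.6%). No library of the cells before selection was analysed here, so the makeup of the guide library and loss before T0 cannot be told apart. The standard errors (SE) of PLK1 and KIF11, the genes with the fewest reads, were the largest of the 9 genes in every tested comparison.

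**Figure D1:**
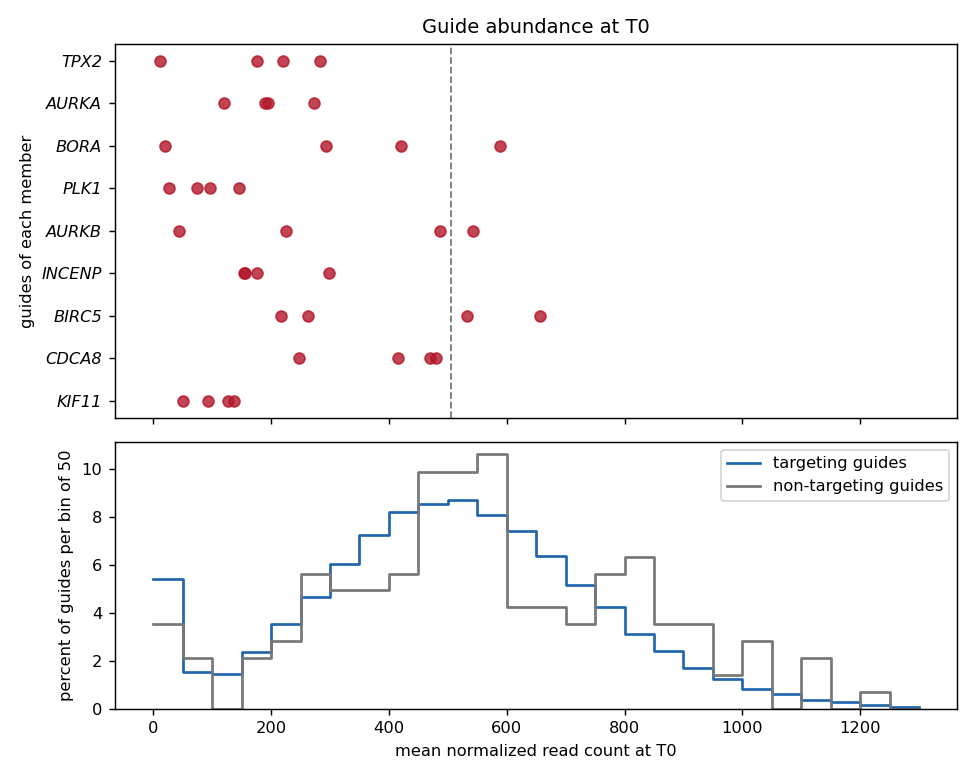
Mean normalized read count at T0 of each of the 36 guides (top, 1 row per gene, dashed line at the median of all targeting guides, 505 reads) and the distribution of targeting and non-targeting guides (bottom, percent of guides in bins of 50 reads). In all, 32 of the 36 guides lie left of the line, and all guides of TPX2, AURKA, PLK1, INCENP, CDCA8 and KIF11 do.

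Setting untreated cells against T0 asks which knockouts were lost in growing cells within 72 h. Knockouts of all 4 members of the chromosomal passenger complex and of TPX2, AURKA and BORA fell, 7 of the 9 genes, relative to non-targeting guides. That count has to be read against all genes, since 50.3% of the 17761 genes tested were called lower and 0.0338% higher in this comparison. The median of all genes was -0.16 and that of 326 olfactory receptor genes, which lung cells are not known to need, was -0.12, so genes in general stood below the non-targeting guides. With the olfactory receptor genes as the zero, AURKB, BIRC5 and CDCA8 remained called and the other 4 did not. Relative to neighbouring genes on the chromosome, AURKB and BIRC5 remained called and CDCA8 did not (L2FC -0.20). The 40 neighbours of CDCA8 had a median L2FC of -0.31 between untreated cells and T0. The median L2FC of the 9 genes was -0.31, and 8 of them lay below the all-gene median.

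BIRC5 had the lowest value of the 9 genes in untreated cells. Its libraries stood at -0.68 and -0.52 in untreated cells, against -0.03 and 0.03 at T0, an L2FC of -0.60 ± 0.09 (SE, n = 2 libraries each; limma adjusted p = 9.13e-07). AURKB was at -0.52 and -0.56 in untreated cells, against -0.02 and 0.02 at T0 (L2FC -0.54 ± 0.11, limma adjusted p = 0.000145). These values leave 66.0% of the T0 abundance for BIRC5 and 68.7% for AURKB. CDCA8 was at -0.48 and -0.54 in untreated cells, against -0.07 and 0.07 at T0 (L2FC -0.51 ± 0.09, limma adjusted p = 4.02e-05). INCENP, the scaffold, was at -0.30 and -0.31 in untreated cells, against 0.03 and -0.03 at T0 (L2FC -0.31 ± 0.12, limma adjusted p = 0.0293). In all 4 genes both untreated libraries lay below both T0 libraries, and the intervals of neighbours in this order overlap. How many of all genes lie below T0 in this way was not counted, and 50.3% of all genes were called lower.

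In the Aurora A arm, AURKA, TPX2 and BORA passed the test in untreated cells. AURKA was at -0.44 and -0.26 in untreated cells, against 0.01 and -0.01 at T0 (L2FC -0.35 ± 0.12, limma adjusted p = 0.0175). TPX2 was at -0.20 and -0.39 in untreated cells, against 0.01 and -0.01 at T0 (L2FC -0.30 ± 0.11, limma adjusted p = 0.0306). BORA was at -0.35 and -0.13 in untreated cells, against -0.10 and 0.10 at T0 (L2FC -0.24 ± 0.08, limma adjusted p = 0.0145). The groups did not overlap in any of these 3 genes, a separation that was not counted over all genes. The calls of these 3 genes were lost when single libraries were left out. TPX2 was not called without replicate 2 of untreated cells (L2FC -0.20, adjusted p = 0.275), without replicate 2 of the erlotinib group (adjusted p = 0.0532) or without either T0 library (0.112 and 0.0527). BORA was not called without replicate 1 of untreated cells (L2FC -0.14, adjusted p = 0.225) or replicate 2 of T0 (-0.14, adjusted p = 0.232). AURKA was not called without replicate 1 of untreated cells (adjusted p = 0.145) or without either T0 library (0.111 and 0.0602), and INCENP, of the other complex, was called in none of the 4 fits that left out an untreated or a T0 library (adjusted p between 0.0508 and 0.143).

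PLK1 and KIF11 did not pass the test between untreated cells and T0. PLK1 was at -0.01 and 0.13 in untreated cells, against -0.16 and 0.16 at T0, so the groups overlapped (L2FC 0.06 ± 0.18, 95% interval -0.30 to 0.42, limma adjusted p = 0.777). KIF11 was at -0.23 and -0.29 in untreated cells, against 0.03 and -0.03 at T0 (L2FC -0.26 ± 0.18, 95% interval -0.63 to 0.10, limma adjusted p = 0.214). These are the genes with the fewest reads at T0, and a loss of the size seen for AURKA lies within the interval of KIF11 but not of PLK1. At the level of single guides, edgeR called 5 of the 33 guides lower and none higher, where 5.93% of all targeting guides were called lower and 1.19% higher. They were guide 2 of AURKB, guides 1 and 4 of BIRC5, and guides 2 and 3 of CDCA8, all in the chromosomal passenger complex.

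**Figure D2:**
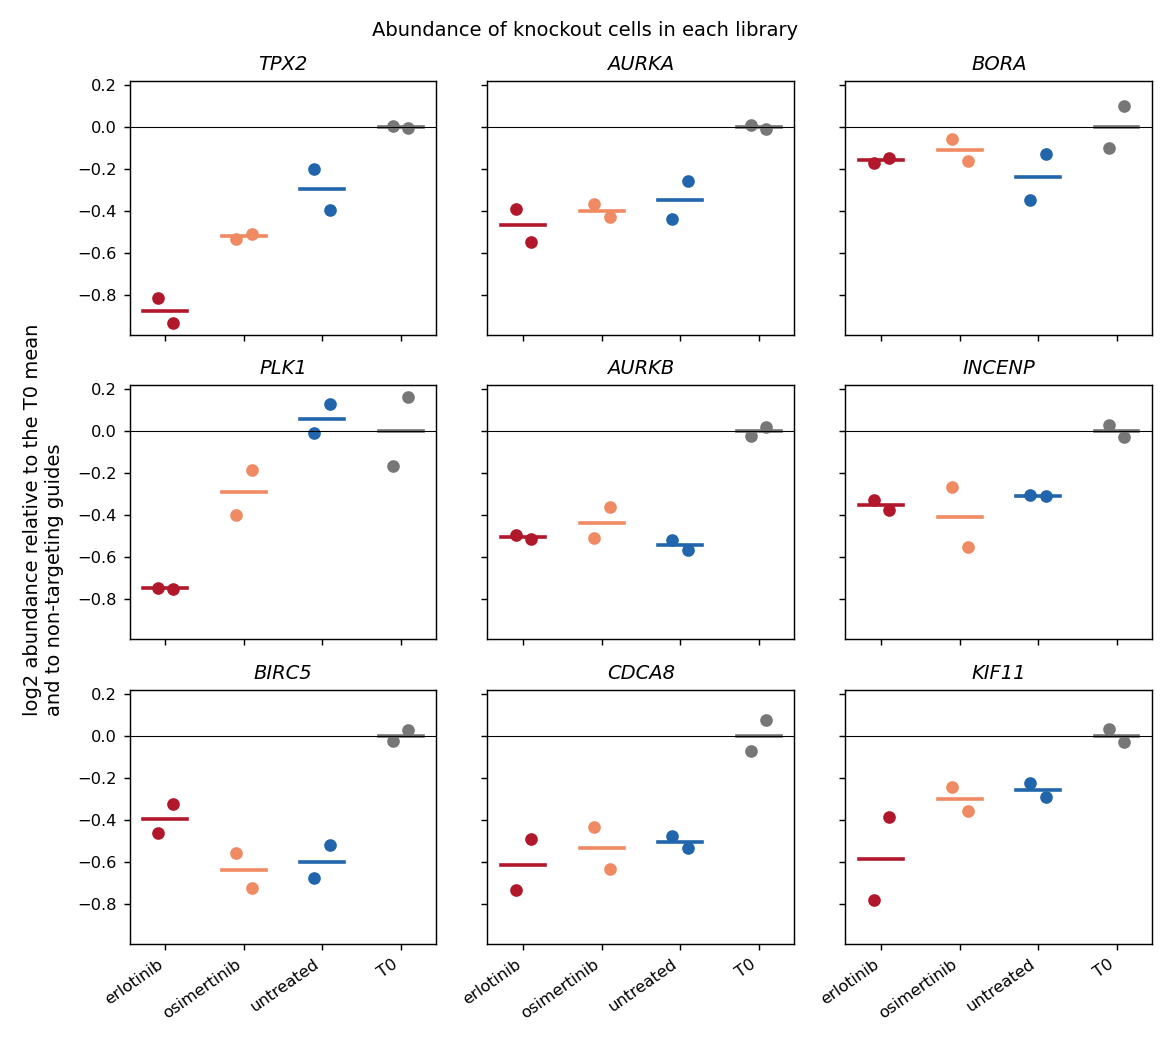
Log2 abundance of each of the 9 knockouts in the 2 libraries of each group (points) with the group mean (bars), relative to non-targeting guides and to the T0 mean (line at 0). TPX2 and PLK1 have both erlotinib libraries below both osimertinib libraries and all drug libraries below both untreated libraries, while AURKB stands between -0.36 and -0.56 in all 3 groups after T0.

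The 4 drug libraries were then set as a single group against untreated cells, to ask which knockouts were rarer or more common with EGFR inhibition than without it. This contrast does not use the difference between the drugs, but it holds the same drug libraries. It also shares the untreated libraries with the comparison of untreated cells and T0, where they enter with opposite sign. TPX2 and PLK1 fell and the other 7 genes did not pass the test, against 5.07% of all genes called lower and 7.76% called higher. The median L2FC of the 9 genes was -0.07, and that of all genes was 0.02.

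TPX2 stood at -0.81 and -0.94 with erlotinib and -0.53 and -0.51 with osimertinib, against -0.20 and -0.39 in untreated cells. Every drug library was below both untreated libraries, and the L2FC was -0.40 ± 0.10 (SE, 4 libraries against 2; limma adjusted p = 0.00494), which leaves 75.8% of the untreated abundance. PLK1 stood at -0.74 and -0.75 with erlotinib and -0.40 and -0.18 with osimertinib, against -0.01 and 0.13 in untreated cells. Here too no drug library reached the untreated ones, with an L2FC of -0.58 ± 0.15 (limma adjusted p = 0.00886) and 67.0% of the untreated abundance. Only 0.653% of genes had a lower value than TPX2 and 0.208% a lower value than PLK1. Both genes were also called with the olfactory receptor genes as the zero, but the calls rest on the untreated libraries. Without replicate 1 of untreated cells neither gene was called (TPX2 -0.34, adjusted p = 0.117, and PLK1 -0.64, adjusted p = 0.0618), and without replicate 2 TPX2 was called and PLK1 was not (-0.53, adjusted p = 0.128).

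The remaining genes lay between -0.18 and 0.10 under drug relative to untreated cells. KIF11 had an L2FC of -0.18 (95% interval -0.50 to 0.13), AURKA of -0.09 (-0.30 to 0.12), INCENP of -0.07 (-0.28 to 0.13) and CDCA8 of -0.07 (-0.23 to 0.10). Above 0 were AURKB with 0.07 (-0.12 to 0.26), BIRC5 with 0.08 (-0.07 to 0.24) and BORA with 0.10 (-0.04 to 0.24). None of these 7 genes was called in limma (adjusted p between 0.357 and 0.695). The intervals leave room for a further loss of up to 0.50 for KIF11, 0.30 for AURKA, the kinase that TPX2 activates, and 0.12 for AURKB. Whether the change of TPX2 differed from that of AURKA was not tested.

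**Figure D3:**
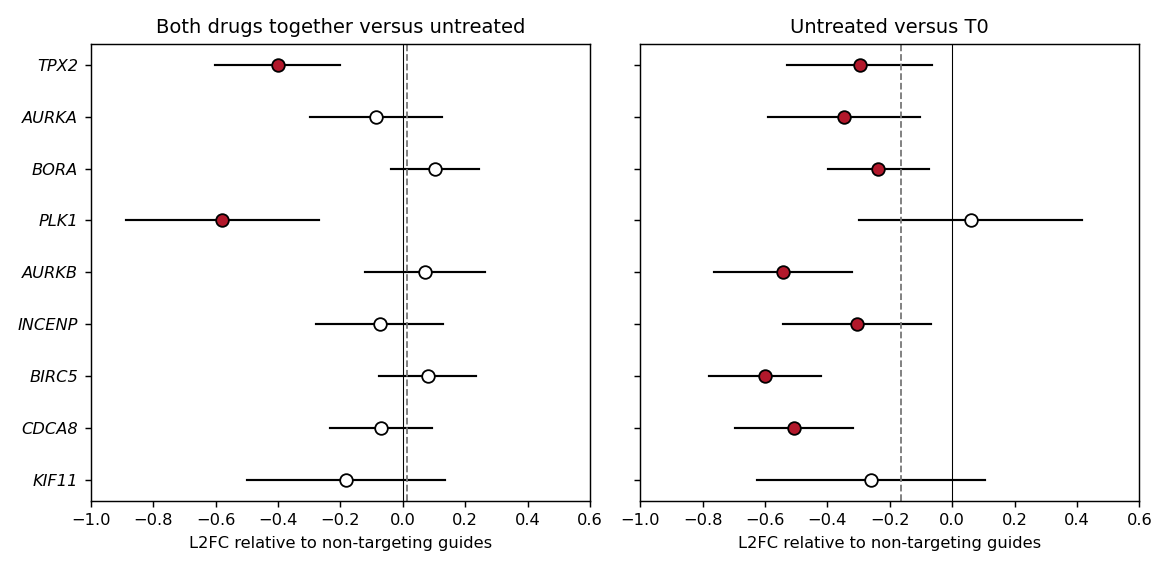
L2FC of each of the 9 genes relative to non-targeting guides with its 95% interval (lines), for both drugs together versus untreated (left) and untreated versus T0 (right); filled points passed the test and dashed lines mark the median of all genes. On the left only TPX2 and PLK1 are filled, and on the right all but PLK1 and KIF11.

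Single guides show where these gene values come from. Guide 1 of TPX2 had 100.7 and 112.1 normalized reads with erlotinib, 190.9 and 167.5 with osimertinib, 238.7 and 215.7 in untreated cells, and 226.3 and 215.1 at T0. It fell under drug relative to untreated cells (L2FC -0.72, edgeR adjusted p = 0.00278). Guide 2 had 190.2 and 200 reads with erlotinib, 232.2 and 232.8 with osimertinib, 292.2 and 256.2 in untreated cells, and 294.6 and 270.3 at T0, in the same order but without passing the test (L2FC -0.36, edgeR adjusted p = 0.135). Guide 4 had 102.9 and 93.4 reads with erlotinib, 122.0 and 180.7 with osimertinib, 110.1 and 129.1 in untreated cells, and 161.9 and 190.3 at T0. This guide had both erlotinib libraries below all others, while its osimertinib libraries overlapped with untreated cells and with T0. Its L2FC relative to untreated cells was -0.29 with erlotinib and 0.34 with osimertinib, and 0.03 for both drugs together. Guide 3, left out for its low level, had between 4.4 and 22.6 reads in the 8 libraries.

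Of PLK1, guide 1 carried the largest difference. It had 40.3 and 29.7 normalized reads with erlotinib, 74.8 and 30.3 with osimertinib, 87.5 and 81.9 in untreated cells, and 70.2 and 80.0 at T0 (L2FC under drug relative to untreated -0.98, edgeR adjusted p = 0.0179). Guides 2 and 3 lay in the same direction, with L2FC of -0.54 and -0.29 that did not pass the test. One of the osimertinib libraries was near the untreated level for guide 1 and the other near the erlotinib level, at read numbers where counting error is large. Guide 3 of KIF11 had 76.1 and 74.7 reads with erlotinib, 85.6 and 98.4 with osimertinib, 118.3 and 159.9 in untreated cells, and 146.3 and 127.8 at T0 (L2FC -0.74, edgeR adjusted p = 0.018), while the other 3 guides of KIF11 had L2FC between -0.26 and 0.02. These were the 3 of 33 guides called lower under drug, and none was called higher, where 2.42% of all targeting guides were called lower and 2.7% higher. Guide 4 of AURKB, the least abundant of its 4, went the other way without passing the test, with 63.8, 40.7, 67.9 and 59.6 reads in the drug libraries and 25.7 and 34.7 in untreated cells.

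**Figure D4:**
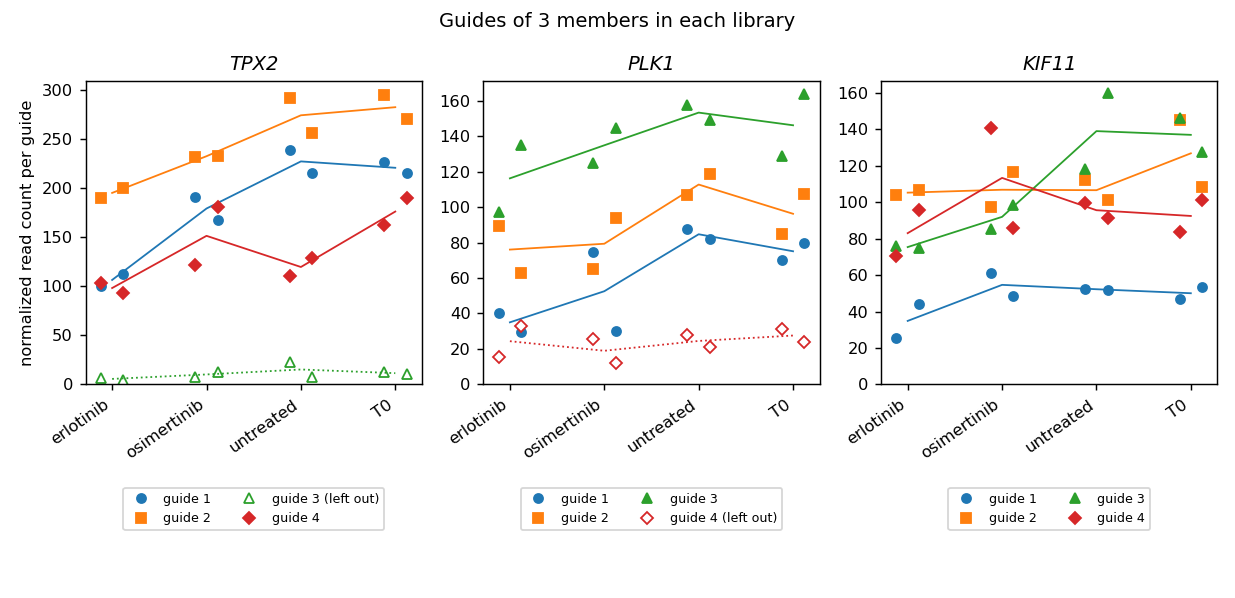
Normalized read counts of each guide of TPX2, PLK1 and KIF11 in the 2 libraries of each group (points), with lines through the group means; open symbols are guides left out for low counts. Guide 1 of TPX2 has 100.7 and 112.1 reads with erlotinib and 238.7 and 215.7 in untreated cells, while its guide 4 has 102.9 and 93.4 with erlotinib and 110.1 and 129.1 in untreated cells.

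Relative to T0, TPX2 had the deepest loss of the 9 genes under both drugs together. Its L2FC was -0.70 ± 0.10 (limma adjusted p = 3.13e-07), or 61.7% of the T0 abundance, and all 3 kept guides were called lower. CDCA8 fell by 0.58, BIRC5 and PLK1 each by 0.52, AURKB by 0.47, KIF11 by 0.44, AURKA by 0.43 and INCENP by 0.38 on the log2 scale (limma adjusted p between 2.57e-07 and 0.0166 for these 7 genes). BORA did not pass the test (L2FC -0.13, 95% interval -0.27 to 0.01, limma adjusted p = 0.0965). These 8 of 9 genes stand beside 53.3% of all genes called lower and 0.895% called higher, and with the olfactory receptor genes as the zero PLK1, INCENP and KIF11 were no longer called (adjusted p = 0.062, 0.075 and 0.152). KIF11 was also not called without replicate 1 of the erlotinib group or without either T0 library (adjusted p between 0.064 and 0.158), and PLK1 not without replicate 2 of T0 (0.16). Across guides, 12 of 33 were called lower and none higher, against 9.09% and 3.84% of all targeting guides. Among the 12 were 3 of TPX2 and 2 each of AURKB, BIRC5 and CDCA8. This comparison shares the T0 libraries with the one of untreated cells.

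The values with erlotinib set against those with osimertinib chose these genes and are given without a test. Over all genes, 0.546% were called lower and 1.05% higher in this contrast. PLK1 had the lowest value of the 9 genes, an L2FC of -0.46 ± 0.18 (SE), followed by TPX2 with -0.35 ± 0.11 and KIF11 with -0.28 ± 0.18. In these 3 genes both erlotinib libraries lay below both osimertinib libraries. How many of all genes separate between the drugs in this way was not counted, so the separation does not set these genes apart. BIRC5 was the reverse, with -0.47 and -0.33 with erlotinib and -0.56 and -0.73 with osimertinib, an L2FC of 0.25 ± 0.09. The other 5 genes overlapped between the drugs and lay between -0.08 (CDCA8) and 0.06 (INCENP), and all of these but BORA changed sign under some alternative.

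How far TPX2 and PLK1 differed between the drugs depended on how guides were combined. Taking the median of the guides' own L2FC in place of the median within each library gave -0.63 for TPX2 and -0.22 for PLK1, and the mean over guides gave -0.52 and -0.24. The 3 kept guides of TPX2 had L2FC of -0.75, -0.25 and -0.63 in this contrast, those of PLK1 -0.58, -0.06 and -0.21, and the 4 of KIF11 between -0.64 and -0.02. The KIF11 value rested on replicate 1 of the erlotinib group, at -0.78 where replicate 2 was at -0.39. Without replicate 1 it was -0.07. All 4 guides of BIRC5 were higher with erlotinib, with L2FC between 0.04 and 0.47.

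Each drug can also be set beside untreated cells, again as a description, since these values share libraries with the contrast that chose the genes. TPX2 had an L2FC of -0.58 with erlotinib (95% interval -0.81 to -0.35) and -0.22 with osimertinib (-0.45 to 0.01). PLK1 had -0.81 (-1.16 to -0.45) and -0.35 (-0.71 to 0.01) in the same order. With osimertinib the intervals of both genes include 0. Both genes were below both untreated libraries under each drug. KIF11 had -0.33 with erlotinib and -0.04 with osimertinib, and BIRC5 had 0.20 with erlotinib and -0.04 with osimertinib. Relative to T0, TPX2 kept 54.5% of its abundance with erlotinib and 69.7% with osimertinib, and PLK1 59.6% and 81.8% in the same order. AURKA stood at 72.3% with erlotinib and 75.8% with osimertinib, and AURKB at 70.5% and 74.0%. CDCA8 was at -0.74 and -0.49 with erlotinib and -0.44 and -0.64 with osimertinib, overlapping with its untreated values. INCENP was at -0.33 and -0.38 with erlotinib and -0.27 and -0.55 with osimertinib, and AURKB at -0.50 and -0.52 with erlotinib and -0.51 and -0.36 with osimertinib. AURKA was at -0.39 and -0.55 with erlotinib and -0.37 and -0.43 with osimertinib, and BORA at -0.17 and -0.15 with erlotinib and -0.06 and -0.16 with osimertinib.

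The profile of TPX2 over the 8 libraries was compared with those of 17273 genes with at least 3 kept guides, by Euclidean distance on the log2 scale. The nearest were ZDHHC5 (distance 0.24), SF3B3 (0.28), TLCD1 (0.28), ITGB5 (0.30) and MGAT1 (0.30). ZDHHC5, for instance, was at -0.78 and -0.91 with erlotinib, -0.60 and -0.69 with osimertinib, -0.09 and -0.37 in untreated cells and -0.05 and 0.05 at T0. Of the other 8 genes described here, CDCA8 came nearest, at rank 180, followed by KIF11 (345), AURKB (382), AURKA (404), PLK1 (677), INCENP (1123), BIRC5 (2019) and BORA (9077). AURKA, the partner of TPX2, was thus nearer to it than most of the 17273 genes, but CDCA8, KIF11 and AURKB were nearer still. The distance includes the drug libraries whose difference chose the genes, so the ranks are a description without a test.

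The 9 lists of other mitotic genes, 163 tested genes in all, place these values. In untreated cells relative to T0, 129 of the 163 (79.1%) were called lower and none higher, with a median of -0.40, where 50.3% of all genes were called lower with a median of -0.16. Members of the augmin and gamma-tubulin complexes, which nucleate spindle microtubules, had a list median of -0.68 with 15 of 16 genes called lower, TUBGCP4 lowest at -1.22. BUB3 of the spindle checkpoint was at -1.36, ANAPC11 of the anaphase-promoting complex at -1.21, and RANGAP1, the activator of RAN's GTPase, at -1.53, all called lower and far below the 9 genes. CENPM of the kinetochore (-1.12), PAFAH1B1, a dynein regulator (-1.06), NCAPH of condensin (-0.998), MASTL, a mitotic entry kinase (-0.96), and RACGAP1 of cytokinesis (-0.85) were the lowest of their lists.

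Under both drugs relative to untreated cells, 15 of the 163 genes (9.2%) were called lower and 8 (4.91%) higher, beside 5.07% and 7.76% of all genes. The anaphase-promoting complex had 4 genes lower of 19 and none higher. CDC20, its activator, stood at -0.47 and -0.68 with erlotinib and -0.28 with both osimertinib libraries, against 0.08 and 0.17 in untreated cells (L2FC -0.55 ± 0.10, limma adjusted p = 7.99e-05). Like PLK1, CDC20 had not passed the test between untreated cells and T0 (L2FC 0.13, adjusted p = 0.332). The same held for WEE1, the kinase that holds back CDK1 (0.18, adjusted p = 0.273), which was lower under drug with an L2FC of -0.51 (adjusted p = 0.0034). Both comparisons use the untreated libraries with opposite sign, so they are not independent. A high untreated value raises the first L2FC and lowers the second. RHOA, the GTPase of the contractile ring, which also acts outside mitosis, was lower with an L2FC of -0.71 (adjusted p = 2.95e-08), and MYH9 of the same list, a heavy chain of nonmuscle myosin, was higher (0.28, adjusted p = 0.00164). CDC23, a subunit of the complex that CDC20 activates, was lower with an L2FC of -0.46. Of 16 augmin and gamma-tubulin genes, 3 were called lower, 1 higher and 12 neither. HAUS3, HAUS4 and HAUS8 of augmin, which acts with TPX2 in branching of microtubules in Xenopus egg extracts, were the lower ones (L2FC between -0.33 and -0.29). HAUS1, HAUS2, HAUS5 and HAUS6 of augmin were not called, with L2FC between -0.08 and 0.07. TUBGCP3 of the gamma-tubulin complex was higher (0.26, adjusted p = 0.0252).

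The list of regulators and substrates of Aurora kinases held the highest value of the 9 lists and, after RHOA, the lowest. RAN, which frees TPX2 from importins and also drives nuclear transport, was at -0.98 and -0.59 with erlotinib and -1.37 and -1.22 with osimertinib, against -0.37 and -0.42 in untreated cells (L2FC -0.65 ± 0.17, limma adjusted p = 0.0092). In RAN both osimertinib libraries were the lower ones, where in TPX2 both erlotinib libraries were. PPP6C, the catalytic subunit of the phosphatase that switches off Aurora A bound to TPX2, was at -0.08 and -0.02 with erlotinib and -0.57 and -0.25 with osimertinib, against -1.06 and -0.80 in untreated cells. Every drug library was above both untreated ones, with an L2FC of 0.70 ± 0.07 (limma adjusted p = 2.91e-09). PPP6C and RCC1, the exchange factor of RAN, were the only genes of the 9 lists called between erlotinib and osimertinib. Both were higher with erlotinib (L2FC 0.37 and 0.31), a description since the lists were chosen with earlier results of these data known. That is 1.23% of the 163 genes called higher and 0% lower, beside 1.05% and 0.546% of all genes. RAN had the highest value of this list between the drugs (0.51) and was not called. The spindle motors and microtubule proteins other than KIF11 had none of 24 genes called lower under drug and KIF22 (0.26) and DCTN1 (0.23) called higher.

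**Figure D5:**
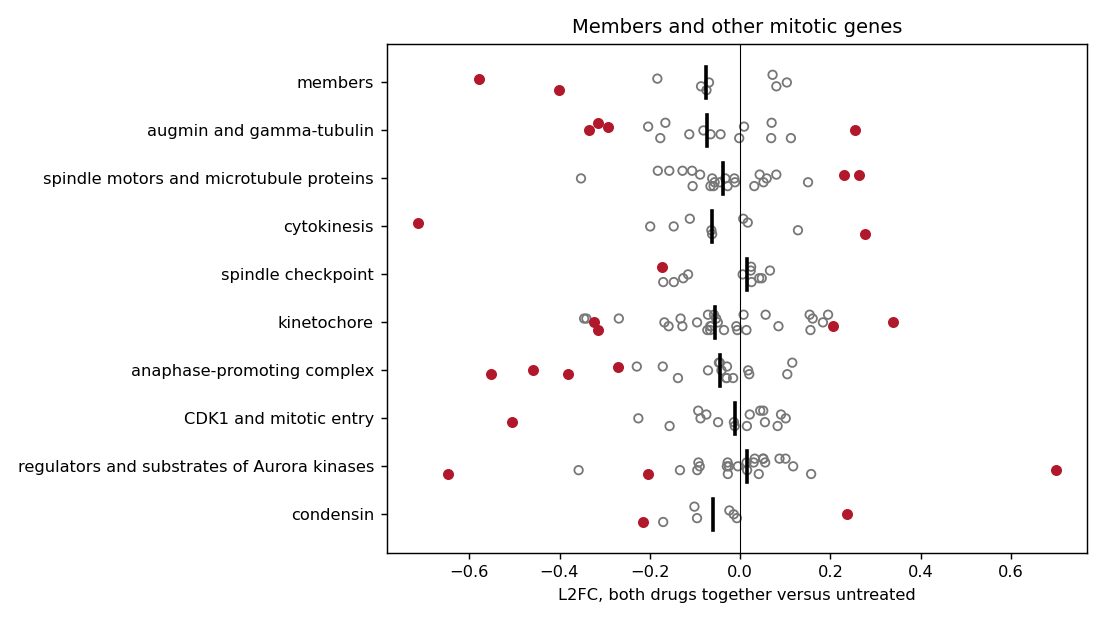
L2FC of both drugs together versus untreated for the 9 genes (top row, members) and for the genes of 9 other lists; filled points passed the test and black bars are medians. Filled points lie between -0.71 (RHOA) and 0.70 (PPP6C), and all list medians lie within 0.1 of 0.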

How the data were processed

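The deposited values are raw counts of reads for every guide in 8 libraries, as the authors made them, without normalization. Per the methods, guide inserts were amplified by PCR without molecular identifiers, trimmed, and mapped with a single mismatch allowed. The methods name Bowtie2 as the aligner, and the submitters' processing notes list Bowtie 1.3.1. Precision from counts covers counting error only. Of 50 gene symbols that appear as sums of money, 49 were restored through the RefSeq gene table and 1, with 4 guides, was left out. All per-sample columns were mapped to samples by their names.

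Counts were scaled by TMM and the lowest 5% of 71090 guides by mean normalized count (cutoff 46.0) were left out, which kept 67531, of them 138 non-targeting. Guides were tested with edgeR 4.0.16 (quasi-likelihood F-test, R 4.3.3, zero at the TMM scale). For genes with at least 2 kept guides, log2 CPM (prior count 1) was centred per guide, the median over guides was taken in each library minus that of non-targeting guides, and group means were compared with limma 3.58.1 (trend, 37.6 degrees of freedom, 4 of them residual) with Benjamini-Hochberg adjustment over 17761 genes. The methods set guide medians against non-targeting guides, which was run as an alternative with edgeR and with DESeq2 1.42.0. Both steps were tested on simulated data.

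The 9 genes, the lists and the tests were chosen with earlier results of these data known. Named beside the 9 genes are the 5 genes nearest TPX2 and, for each list, its lowest and highest gene in a comparison. CDC23, HAUS1, HAUS2, HAUS3, HAUS4, HAUS5, HAUS6, DCTN1 and RCC1 were named after their values were seen. Other alternatives were the scaling, filter, prior count, zero, mean over guides, summed counts, a replicate block, 20 neighbouring genes on each side, and leaving out each library. The arm at a higher dose of osimertinib was not used here.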

Additional observations from a re-analysis of the deposited data

How the results depend on the processing

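In the 3 tested comparisons, 15 of 513 values of single genes under 19 alternatives changed sign, all of genes not called in that comparison. The sign of PLK1 between untreated cells and T0 turned to -0.0924 without the filter, -0.013 with the mean over guides, -0.0393 with summed counts, and -0.0117 (edgeR) and -0.0102 (DESeq2) in the tests against non-targeting guides, and it ranged from -0.1035 to 0.2206 with a library left out. For BORA under both drugs relative to T0 it turned to 0.0211 with the median of all genes as the zero, 0.0002 with olfactory receptor genes and 0.04 relative to neighbouring genes. Under both drugs relative to untreated cells it turned for BORA with summed counts (-0.0031) and for INCENP relative to neighbours (0.0459). With a library left out, BORA ranged from -0.0139 to 0.20, CDCA8 from -0.1388 to 0.0068, BIRC5 from -0.0044 to 0.1642 and AURKA from -0.1756 to 0.0146. Between the drugs, AURKA, AURKB, INCENP and CDCA8 changed sign under some alternatives, and TPX2, PLK1, KIF11, BIRC5 and BORA under none of the 19.

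Of the 9 genes, 7 were called lower between untreated cells and T0, and 3 with the median of all genes or olfactory receptor genes as the zero, 2 relative to neighbouring genes, and 3 to 7 with a library left out. Under both drugs relative to T0, 8 were called, 5 under each of these 3 zeros, and 6 to 9 with a library left out. Under both drugs relative to untreated cells, 2 were called under every alternative except without an untreated library, where the counts were 0 and 1. Guides called lower were 5 between untreated cells and T0 (2 to 7 with a library left out), 12 under both drugs relative to T0 (5 to 12), and 3 relative to untreated cells (1 to 3, and 1 with DESeq2), with 0 to 1 called higher there.

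Over all genes, 8935 were called lower between untreated cells and T0, but 1837 with the all-gene zero, 2343 with olfactory receptor genes and 1433 relative to neighbours, and 6 were called higher but 464, 140 and 238, 12 with the mean over guides and 30 in the tests against non-targeting guides. Under both drugs relative to T0 the counts were 9468 lower, but 2839, 3229 and 1821 in the same order of zeros, and 159 higher, but 1725, 1193 and 641. Relative to untreated cells they were 901 lower and 1379 higher, but 430 and 617 relative to neighbours. Between the drugs they were 97 lower and 186 higher, but 172 and 360 with summed counts, 182 and 434 (edgeR) or 183 and 438 (DESeq2) against non-targeting guides, and 42 lower relative to neighbours. With a library left out, the lower counts ranged from 5312 to 9807, 6140 to 9765, 346 to 1039 and 14 to 98 in these 4 comparisons, and the higher counts from 3 to 9, 83 to 179, 628 to 1456 and 29 to 243. The cause of these changes was not tested. Same-numbered replicates did not deviate together (correlations between -0.0035 and 0.0164), and a fit with the replicate number as a block called the same 7, 8 and 2 genes, with 8976, 9491 and 912 of all genes lower.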
